A study of Mus musculus with 8 samples.

Results

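Pyruvate reaches oxidation in the heart through the mitochondrial pyruvate carrier, the pyruvate dehydrogenase complex and the tricarboxylic acid (TCA) cycle, and the genes of that route were compared between left ventricles of Mst1-TG and WT mice. The set holds 34 genes listed by function and found by gene symbol, out of 55385 genes in the deposited table: 2 pyruvate carrier subunits, 5 subunits of the pyruvate dehydrogenase complex, 4 kinases and 3 phosphatase subunits that act on it, 16 genes of the TCA cycle and its close relatives, and 4 genes of anaplerosis and transamination. Each symbol matched 1 row, and all 34 passed the filter on low counts. The succinate dehydrogenase subunits were counted with the neighbouring genes.

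The samples were 4 Mst1-TG and 4 WT left ventricles from male C57BL6 mice, profiled by RNA-seq after removal of ribosomal RNA. Mst1-TG mice carry an Mst1 transgene under the alpha-myosin heavy chain promoter, which limits it to cardiomyocytes, and develop dilated cardiomyopathy, while WT animals were littermates without the transgene. The mice were 3 weeks old according to the text on the design, although the RNA protocol in the labels gives 3 months and the growth protocol names both 3 weeks and 5.5 months. Whether each library came from a separate animal is not stated, and the p-values therefore cover sample-to-sample spread that may be technical.

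Pyruvate enters mitochondria through a carrier made of Mpc1 and Mpc2, and the pyruvate dehydrogenase complex turns it into acetyl-CoA. Pdk kinases phosphorylate and switch off the complex, and Pdp phosphatases switch it on again, so that the balance between them sets how much pyruvate is oxidised when fatty acids are also available. Acetyl-CoA then enters the TCA cycle, whose intermediates are refilled by anaplerotic enzymes such as pyruvate carboxylase and glutamate dehydrogenase. The heart draws most of its energy from this cycle and is known for a very high content of its enzymes.

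Stk4, the mouse gene for the Mst1 kinase, was at 1449 to 1747 CPM in Mst1-TG libraries and at 25.2 to 29.6 CPM in WT libraries (CPM, read counts scaled to library size with TMM factors). Libraries held 21435063 to 22355197 estimated counts in Mst1-TG and 21193536 to 23809256 in WT. Genes encoded by mitochondrial DNA took 12.9% to 14.4% of the counts in Mst1-TG libraries and 21.4% to 23.8% in WT libraries. Summed over 7 cardiomyocyte markers the level was 25350 to 34610 CPM in Mst1-TG and 35050 to 42940 CPM in WT, with 4 of the 7 lower, while Ttn, Actn2 and Ryr2 did not pass the test. Fibroblast markers summed to 6163 to 8585 CPM in Mst1-TG and 2562 to 3419 CPM in WT, and all 7 rose. Of the other markers, 3 of 5 endothelial, 1 of 5 macrophage, 2 of 4 smooth muscle and 3 of 3 atrial genes were lower, and 1 smooth muscle gene was higher. Adipocyte markers stayed at or below 5.96 CPM in sum in Mst1-TG and 5.69 CPM in WT, and skeletal muscle markers at or below 1.59 CPM and 1.19 CPM, with Myh4 at 0 in all libraries. Erythroid markers, for which the test made no call, ranged from 3592 to 7654 CPM in Mst1-TG and from 5859 to 14910 CPM in WT. In whole ventricle, fewer cardiomyocytes and less of a transcript per cardiomyocyte cannot be told apart, and the part of these shifts in the results below was not tested.

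The pyruvate and TCA cycle genes were lower nearly throughout. Of the 34, 29 fell in Mst1-TG hearts, 1 rose (Pdk3) and 4 did not pass (Pdk1, Pdk4, Idh1 and Pcx). The median log2 fold change of the 34 was -1.02, beside 0.01 over all genes tested. Calls used the edgeR quasi-likelihood test with a Benjamini-Hochberg adjusted p below 0.05 over 15314 genes, of which 21.1% were called lower and 21.2% higher. Falls of at least 2-fold were called for 18 of the 34 genes, against 4.60% of all genes tested. In 29 of the 34 genes all Mst1-TG values lay to one side of all WT values, against 40.3% of all genes tested. Together the 34 genes took 0.936% to 1.04% of all counts in Mst1-TG libraries and 1.57% to 1.65% in WT libraries. With mitochondrially encoded genes left out of the total, the shares were 1.08% to 1.21% in Mst1-TG and 2.06% to 2.16% in WT.

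The fall was of similar size in most of the set. The log2 fold changes of 24 genes lay between -1.34 and -0.72, a stretch of values that held 7.59% of all genes tested when widened to -1.4 and -0.7. Below it stood only Ogdhl, at -4.03. The 9 genes above it were Pdk1, Pdk3, Pdk4, Pdp1, Pdpr, Aco1, Idh1, Pcx and Glud1, which ran from -0.60 to 1.10. Scaling sets the size of each fall. When counts were divided by library totals alone, the median of all genes tested moved to 0.29, and all calls split into 1592 lower and 7409 higher genes, against 3238 lower and 3244 higher in the main test. The 34 genes then had 26 falls and 2 rises, with a median of -0.74.

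**Figure D1:**
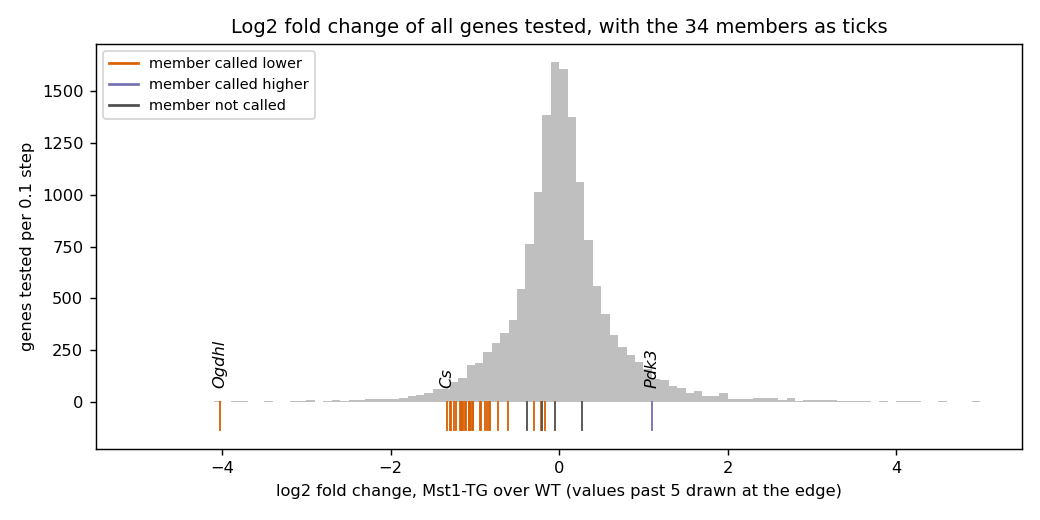
Histogram of log2 fold changes, Mst1-TG over WT, for the 15314 genes tested, in steps of 0.1, with a tick under the axis for each of the 34 pyruvate and TCA cycle genes, coloured by its call. The ticks crowd around -1, with Ogdhl alone at -4.03 and Pdk3 at 1.10, while the histogram centres near 0; with library totals only, the ticks of Aco1, Idh1, Pcx and Glud1 would lie above 0.

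Among Mst1-TG libraries, Mst1-TG 3 was the lowest for 26 of the 29 genes that fell. That library also had the lowest mitochondrial share (12.9%), cardiomyocyte marker sum (25350 CPM), erythroid marker sum (3592 CPM) and Stk4 level (1449 CPM) of its group. Its endothelial (1588 CPM) and macrophage (208 CPM) marker sums were the highest of the group. Whether these account for its position was not tested. Without Mst1-TG 3 the median of the 34 genes was -0.93 and 27 of the 29 falls remained. WT 4 was the lowest WT library for 19 of the 29 genes and had the lowest cardiomyocyte marker sum of its group (35050 CPM). It also had the lowest mitochondrial share of the WT libraries (21.4%). Its fibroblast (3419 CPM), endothelial (1868 CPM), macrophage (194 CPM) and smooth muscle (712 CPM) marker sums were the highest of the group. Unlike in Mst1-TG 3, its Stk4 level was the highest of its group (29.6 CPM). Whether these account for the position of WT 4 was not tested. The coefficient of variation of the 34 genes had a median of 9.97% in Mst1-TG and 5.80% in WT.

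**Figure D2:**
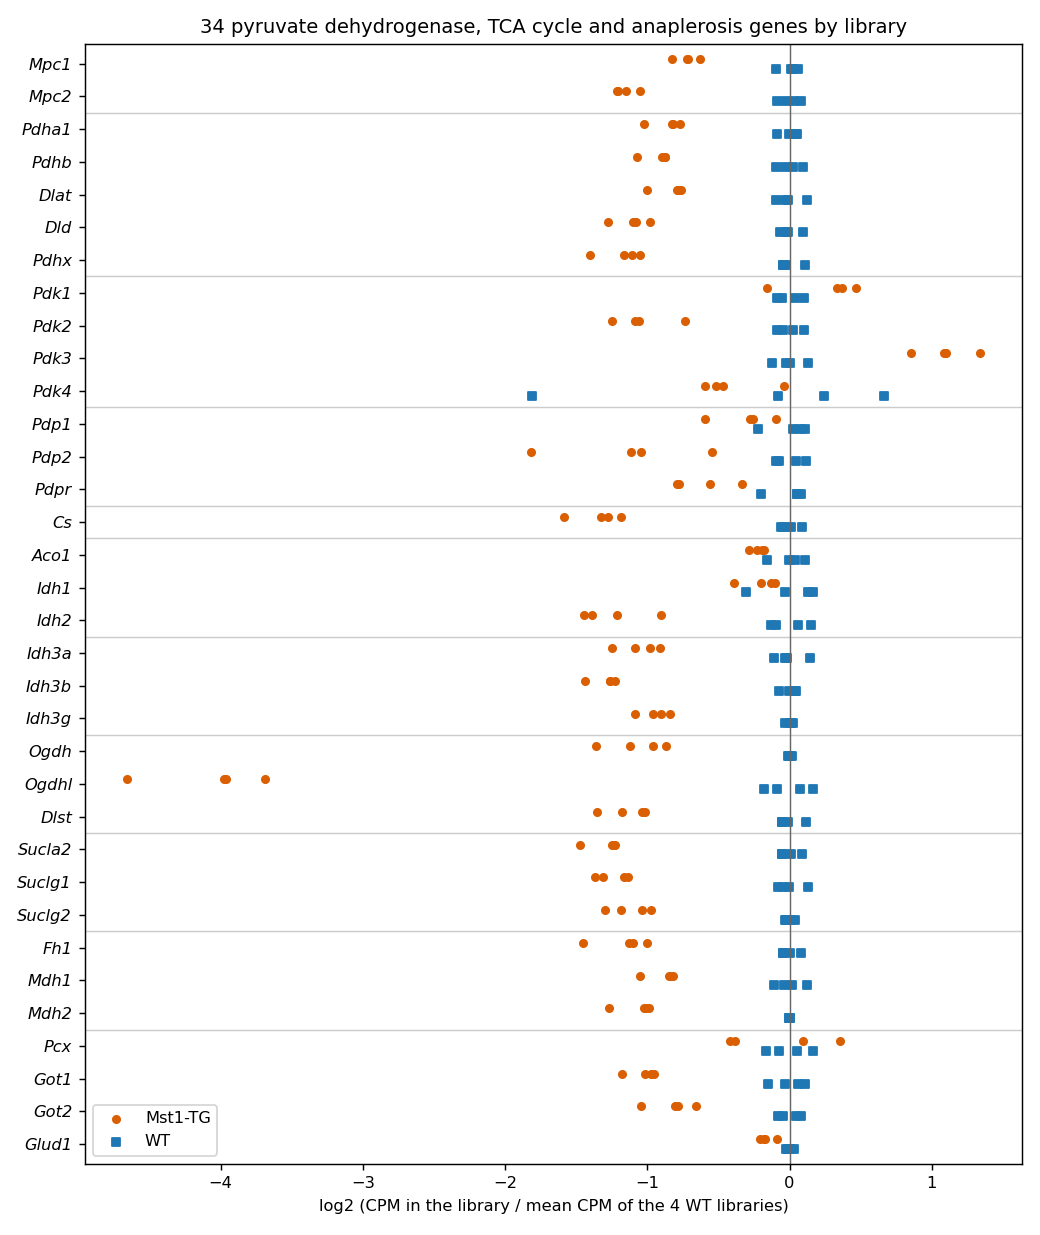
Level of each of the 34 genes in each library, as log2 of its CPM over the mean CPM of the 4 WT libraries (horizontal axis), with Mst1-TG as circles above WT as squares and grey lines between functional groups. In 28 of the 29 genes called lower the circles lie apart from the squares, Pdp1 being the exception, and WT 1 stands far to the left for Pdk4; with library totals only, Aco1 and Glud1 turn to higher values that do not pass.

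Promoter windows were read for 32 of the 34 genes, all but Pdp1 and Idh3a, because so many of the genes fell together. Each window spans 250 bases before to 50 after a RefSeq start site (300 bases, GRCm38.p6), and 3 short motifs of factors known to act on mitochondrial genes were searched on both strands. The letters GCGCNTGCG, from the site of nuclear respiratory factor NRF1, were in a window of 6 of the 32 genes (Pdha1, Dld, Idh3g, Ogdh, Sucla2 and Glud1), or 18.8%, against 7.12% of 27025 genes with a window. The 27025 genes were not limited to those tested here, and base composition was not matched. Counted by window, the shares were 16.7% of 42 and 6.31% of 32851. The 42 include 2 overlapping Ogdh windows that hold the same NRF1 match, which was counted in each. The letters AAGATGGCG, from the site of YY1, were found only in Idh3g among the 32 (3.12%, against 1.64% of all genes). No other base was allowed in these letters, so variants of the site in other windows were not counted. The letters TNAAGGTCA, from the site of the estrogen-related receptors, were in none of the 32 and in 1.43% of all genes, which says only that these letters are absent from these windows. A match is a description of letters and not a bound site, and genes with several start sites had more windows to match in. No 2 motifs overlapped in the windows printed here. The windows of 4 genes follow, each 5′ to 3′ on the strand of the gene, with motif letters in capitals. Idh3g (chrX:73786848-73787147, reverse strand) holds both YY1 and NRF1 letters. Sucla2 (chr14:73552536-73552835, forward strand) and Ogdh (the most downstream of its 6 windows, chr11:6292329-6292628, forward strand) hold NRF1 letters. Ogdhl (chr14:32321769-32322068, forward strand), which fell furthest, holds none of the 3 motifs, like most of the 32 genes.
Idh3g: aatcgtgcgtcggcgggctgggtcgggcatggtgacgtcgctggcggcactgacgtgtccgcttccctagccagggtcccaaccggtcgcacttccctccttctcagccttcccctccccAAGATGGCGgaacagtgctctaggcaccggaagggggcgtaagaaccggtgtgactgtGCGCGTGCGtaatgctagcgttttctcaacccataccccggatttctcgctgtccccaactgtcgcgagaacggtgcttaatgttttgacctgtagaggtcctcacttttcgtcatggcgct
Sucla2: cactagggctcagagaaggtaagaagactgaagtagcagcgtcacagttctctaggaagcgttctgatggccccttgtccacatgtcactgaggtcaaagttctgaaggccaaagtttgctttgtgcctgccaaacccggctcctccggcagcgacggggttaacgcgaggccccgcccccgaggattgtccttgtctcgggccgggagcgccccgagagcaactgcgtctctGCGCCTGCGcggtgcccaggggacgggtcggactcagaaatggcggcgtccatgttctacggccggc
Ogdh: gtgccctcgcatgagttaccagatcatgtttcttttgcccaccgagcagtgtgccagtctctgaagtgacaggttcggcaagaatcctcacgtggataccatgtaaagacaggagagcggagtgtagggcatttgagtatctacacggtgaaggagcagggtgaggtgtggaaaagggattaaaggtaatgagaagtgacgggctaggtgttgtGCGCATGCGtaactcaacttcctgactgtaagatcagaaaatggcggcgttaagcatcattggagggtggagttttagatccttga
Ogdhl: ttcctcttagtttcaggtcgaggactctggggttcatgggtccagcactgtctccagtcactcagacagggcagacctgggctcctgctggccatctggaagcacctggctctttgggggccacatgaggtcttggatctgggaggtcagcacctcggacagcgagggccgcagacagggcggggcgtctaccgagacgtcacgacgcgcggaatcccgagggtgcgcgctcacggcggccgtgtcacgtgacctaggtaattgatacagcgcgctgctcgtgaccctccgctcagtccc

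Both carrier subunits fell. Mpc2, which forms the working carrier as a heterodimer with Mpc1, was at 121, 116, 116 and 130 CPM in the Mst1-TG libraries and at 274, 284, 252 and 263 CPM in the WT libraries. The groups were far apart, and the log2 fold change was -1.15 ± 0.07 (SE, edgeR adjusted p = 4.42e-08). Mpc1 averaged 197 ± 10.9 CPM in Mst1-TG and 324 ± 14.5 CPM in WT (SD, n = 4 each), a smaller log2 fold change of -0.72 ± 0.07 (edgeR adjusted p = 1.69e-06). Mpc1 shares 50.5% of the 31-base words of its transcript with other genes, mainly Mpc1-ps, which had no counts, and its count depends on how such reads were divided.

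All 5 subunits of the pyruvate dehydrogenase complex fell. Its catalytic E1 enzyme is built from Pdha1 and Pdhb, which changed by -0.86 ± 0.08 and -0.93 ± 0.07 on the log2 scale. Pdha1 averaged 593 ± 44.0 CPM in Mst1-TG and 1074 ± 47.9 CPM in WT. Dlat, the acetyltransferase core, changed by -0.83 ± 0.08. Dld, the dihydrolipoamide dehydrogenase that this complex shares with the oxoglutarate complex, was at 188, 173, 153 and 176 CPM in Mst1-TG and at 369, 396, 353 and 365 CPM in WT (-1.11 ± 0.08, edgeR adjusted p = 1.29e-07). Pdhx, which holds Dld on the core, was at 54.6, 50.5, 42.8 and 52.4 CPM in Mst1-TG and at 111, 122, 110 and 110 CPM in WT (-1.18 ± 0.08, edgeR adjusted p = 1.05e-07). For all 5 genes the highest Mst1-TG library lay below the lowest WT library. Transcript levels per length were unequal within the complex: in Mst1-TG they averaged 243.5 ± 15.6 CPM per kb for Pdhb and 19.98 ± 2.06 for Pdhx, and in WT 464 ± 26.7 for Pdhb and 45.2 ± 2.43 for Pdhx. Pdhb and Pdha1 share 41.9% and 20.8% of their 31-base words with other genes, for Pdhb with Gm6123, which had 5 counts over all libraries, and for Pdha1 mainly with Map3k15, an antisense neighbour with 114 counts.

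The kinases did not move together. Pdk2, a main isoform of heart, fell, Pdk3 rose, and Pdk1 and Pdk4 did not pass. Pdk2 was at 178, 227, 159 and 182 CPM in Mst1-TG and at 405, 366, 385 and 355 CPM in WT. Its log2 fold change was -1.02 ± 0.10 (edgeR adjusted p = 2.63e-06), and every Mst1-TG library lay below every WT library. Pdk3, which is scarce in heart, was at 8.68, 10.2, 7.30 and 8.57 CPM in Mst1-TG and at 4.06, 3.72, 4.42 and 3.98 CPM in WT. Every Mst1-TG library lay above every WT library, and the fold was 2.15 (log2 1.10 ± 0.13, edgeR adjusted p = 2.06e-05).

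Pdk1, a kinase that hypoxia-inducible factor is known to raise, was at 115, 165, 177 and 161 CPM in Mst1-TG and at 137, 123, 132 and 121 CPM in WT. Mst1-TG 2, 3 and 4 lay above all WT libraries, and Mst1-TG 1 lay below them all. The log2 fold change of 0.27 ± 0.11 did not pass (edgeR adjusted p = 0.0766), but without Mst1-TG 1 it did (0.39, adjusted p = 6.93e-04), as it did with library totals only (0.56, adjusted p = 0.0014). Pdk4, the kinase that fasting and fatty acids induce, varied widely in WT. It was at 600, 633, 881 and 653 CPM in Mst1-TG and at 258, 856, 1431 and 1071 CPM in WT. Mst1-TG libraries lay inside the WT range, and WT 1 was far below all the others. The log2 fold change of -0.39 ± 0.48 did not pass (edgeR adjusted p = 0.572), whereas without WT 1 it was -0.70 (adjusted p = 0.0143).

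The phosphatases were lower. Pdp1, the calcium-stimulated catalytic isoform, was at 23.5, 26.8, 18.9 and 23.9 CPM in Mst1-TG and at 29.98, 30.8, 24.4 and 29.0 CPM in WT. The groups overlapped, and the fall of -0.29 ± 0.11 (edgeR adjusted p = 0.0387) did not pass under 7 of 15 alternatives, among them library totals only (-0.01) and leaving out Mst1-TG 1, 3 or 4 or WT 1, 2 or 4. Pdp2, the insulin-sensitive isoform, was at 6.65, 6.995, 4.08 and 9.87 CPM in Mst1-TG and at 13.5, 14.9, 13.6 and 15.6 CPM in WT. The groups did not overlap (-1.06 ± 0.20, edgeR adjusted p = 0.00139). Pdpr, the regulatory subunit of the phosphatase, was at 51.4, 69.7, 50.9 and 59.8 CPM in Mst1-TG and at 91.1, 93.2, 91.1 and 76.8 CPM in WT (-0.60 ± 0.10, edgeR adjusted p = 3.93e-04), again without overlap.

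**Figure D3:**
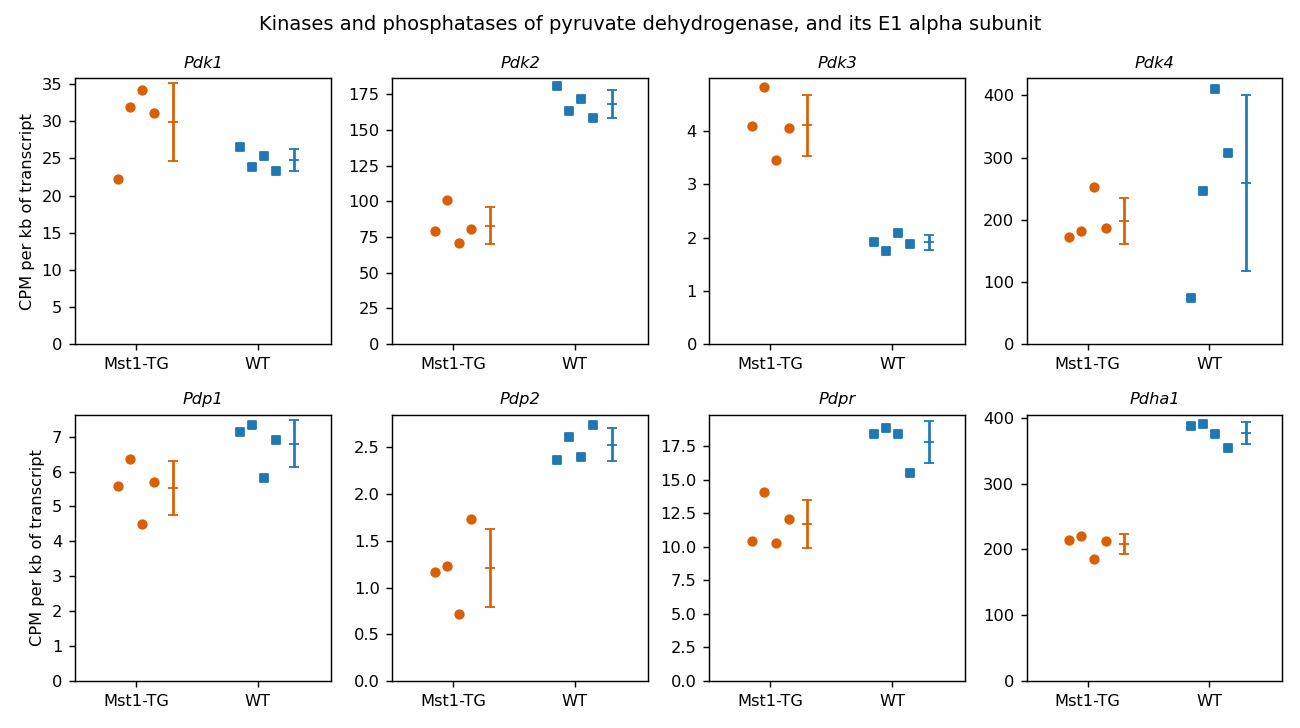
Levels of the 4 kinases, the 3 phosphatase subunits and Pdha1 in CPM per kb of transcript (vertical axes from 0), with 1 point per library, Mst1-TG left of WT, and mean ± SD (n = 4) beside the points. Pdk2, Pdp2, Pdpr and Pdha1 lie lower in Mst1-TG and Pdk3 higher, without overlap, while Pdk1, Pdk4 and Pdp1 overlap; with library totals only, Pdp1 is level between the groups.

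Per kb of transcript, the order of the kinases by mean level was the same in both groups: Pdk4, Pdk2, Pdk1 and Pdk3. In Mst1-TG the means were 198.5 ± 36.8, 83.0 ± 12.9, 29.8 ± 5.26 and 4.11 ± 0.568 CPM per kb. In WT they were 259.5 ± 141, 168 ± 9.84, 24.7 ± 1.46 and 1.91 ± 0.137 CPM per kb, and there Pdk4 and Pdk2 did not differ beyond the spread of Pdk4. Pdk2 made up 28.5%, 31.7%, 19.6% and 26.6% of the summed kinase level in the Mst1-TG libraries, and 63.8%, 37.6%, 28.1% and 32.2% in the WT libraries. Pdk1 made up 7.99% to 10.3% in Mst1-TG and 4.16% to 9.36% in WT. Pdk3 stayed at or below 1.51% in Mst1-TG and 0.678% in WT.

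**Figure D4:**
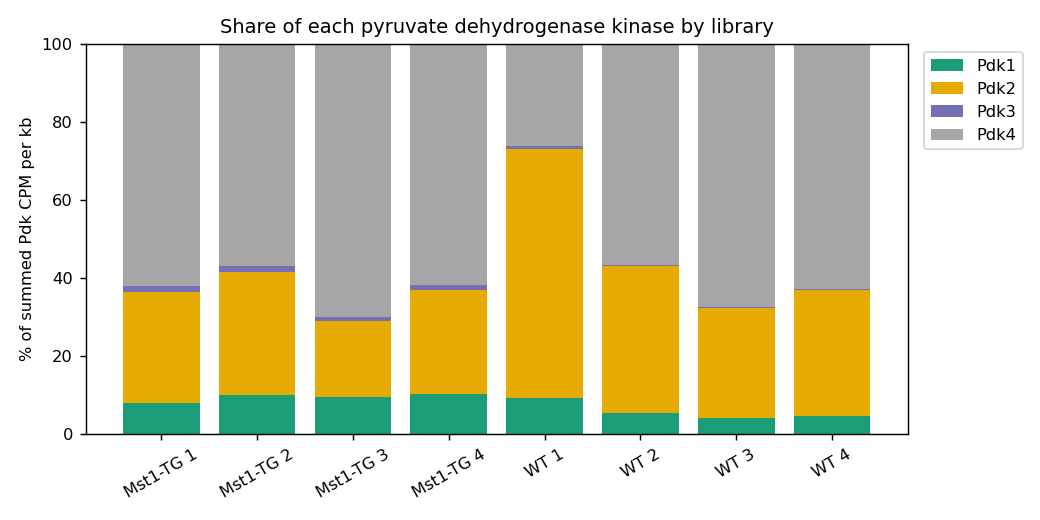
Share of Pdk1, Pdk2, Pdk3 and Pdk4 in the summed kinase level (CPM per kb) in each library, the 4 Mst1-TG libraries left of the 4 WT libraries. Pdk4 takes 56.8% to 69.99% in Mst1-TG and 26.2% to 67.4% in WT, where WT 1 is the library at 26.2%.

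The balance of kinase to phosphatase transcripts, taken as the summed Pdk level over the summed level of Pdp1 and Pdp2 per kb, was 41.0, 42.0, 69.2 and 40.9 in Mst1-TG and 29.8, 43.7, 74.2 and 50.8 in WT. The Mst1-TG range lay inside the WT range, and this ratio was not tested. The mean log2 ratios were 5.55 ± 0.373 in Mst1-TG and 5.56 ± 0.545 in WT (SD, n = 4 each). Without Pdk4, which varied most in WT, the ratio was 15.6 to 20.8 in Mst1-TG and 19.0 to 24.2 in WT, still with overlap. All 4 kinases summed to 278 to 361 CPM per kb in Mst1-TG and 283 to 609.5 in WT, with overlap. Kinases other than Pdk4 summed to 105 to 138 CPM per kb in Mst1-TG and 183 to 209 in WT, without overlap. Pdp1 with Pdp2 summed to 5.22 to 7.60 CPM per kb in Mst1-TG and 8.22 to 9.94 in WT, also without overlap. Set against their substrate Pdha1, all 4 kinases stood at 1.297 to 1.945 times its level in Mst1-TG and at 0.729 to 1.62 times in WT. Kinases other than Pdk4 stood at 0.492 to 0.624 of its level in Mst1-TG and at 0.482 to 0.538 in WT. The phosphatases stood at 0.0281 to 0.0350 of the Pdha1 level in Mst1-TG and at 0.0219 to 0.0273 in WT, ranges that did not overlap and were not tested.

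Citrate synthase (Cs), which joins acetyl-CoA to oxaloacetate and opens the cycle, was at 637, 597.5, 481 and 577 CPM in Mst1-TG and at 1457, 1538, 1410 and 1389 CPM in WT. Its log2 fold change of -1.34 ± 0.09 (edgeR adjusted p = 1.21e-07) was the lowest in the set after Ogdhl. The NAD-dependent isocitrate dehydrogenase, a control point of the cycle, is an assembly of Idh3a, Idh3b and Idh3g, and all 3 fell. Idh3b was at 281, 275, 243 and 274 CPM in Mst1-TG and at 674, 677, 656 and 624 CPM in WT (-1.29 ± 0.07, edgeR adjusted p = 3.25e-08), the smallest p of the 34 genes. Idh3a changed by -1.05 ± 0.09 and Idh3g by -0.94 ± 0.07. Idh3b overlaps the antisense gene Nop56 in its exons.

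Idh2 fell, while the changes of the cytosolic enzymes Idh1 and Aco1 were small. Idh2, the mitochondrial NADP-dependent isocitrate dehydrogenase, averaged 556 ± 97.5 CPM in Mst1-TG and 1297 ± 118 CPM in WT (-1.22 ± 0.12, edgeR adjusted p = 2.77e-06). Its cytosolic counterpart Idh1 was at 28.9, 35.2, 32.9 and 34.6 CPM in Mst1-TG and at 41.4, 36.9, 30.5 and 42.4 CPM in WT, overlapping values that did not pass (-0.20 ± 0.10, edgeR adjusted p = 0.135) except without WT 3 (-0.29, adjusted p = 0.022). The difference between Idh1 and Idh2 was not tested. Aco1, the cytosolic aconitase that doubles as an iron sensor, averaged 45.9 ± 1.46 CPM in Mst1-TG and 53.5 ± 4.05 CPM in WT. Its fall of -0.22 ± 0.07 (edgeR adjusted p = 0.0182) did not pass without WT 1 (-0.18, adjusted p = 0.0623) and turned to 0.07 with library totals only.

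The oxoglutarate dehydrogenase complex held the deepest fall of the set. Its E1 enzyme is made by Ogdh (ENSMUSG00000020456.17, chromosome 11 from 6291633 to 6356642, forward strand, GENCODE M21 on GRCm38), and Ogdhl (ENSMUSG00000021913.8, chromosome 14 from 32322019 to 32348151, forward strand) encodes a closely related protein best known from brain. Ogdhl was at 10.5, 12.7, 6.52 and 10.4 CPM in Mst1-TG and at 185, 173, 155 and 145 CPM in WT. No Mst1-TG library came near the WT range, and the log2 fold change of -4.03 ± 0.17 (edgeR adjusted p = 7.90e-08) was the 5th lowest of the 15314 genes tested. Ogdh was at 867, 926, 658 and 775 CPM in Mst1-TG and at 1690, 1709, 1681 and 1679 CPM in WT (-1.07 ± 0.10, edgeR adjusted p = 1.58e-06). The WT libraries agreed closely for Ogdh, and all Mst1-TG libraries lay well below them. Dlst, the succinyltransferase core of the complex, changed by -1.14 ± 0.09, close to Ogdh.

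Ogdhl fell more than Ogdh. Per kb of transcript, Ogdhl made up 1.43%, 1.62%, 1.17% and 1.59% of the summed Ogdh and Ogdhl level in Mst1-TG, and 11.6%, 10.8%, 9.93% and 9.38% in WT. The log2 ratio of Ogdhl to Ogdh averaged -6.09 ± 0.216 in Mst1-TG and -3.11 ± 0.148 in WT (SD, n = 4 each). The log2 ratio differed by -2.99, a 7.92-fold lower ratio in Mst1-TG. In an exact permutation test the two-sided p was 0.0286, the smallest that 4 against 4 libraries can give. Groups without overlap always give this p, and the pair was chosen with earlier results of these data known, so it adds no support. The principal transcripts of Ogdh and Ogdhl share no 31-base word with each other or with another gene of the annotation, so in a pseudoalignment with words of that length they would not compete for reads free of errors. Even in WT, Ogdh was the main E1 transcript, at 409 ± 3.32 CPM per kb beside 47.7 ± 5.13 for Ogdhl, and in Mst1-TG the levels were 195 ± 28.3 and 2.92 ± 0.7497 CPM per kb.

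**Figure D5:**
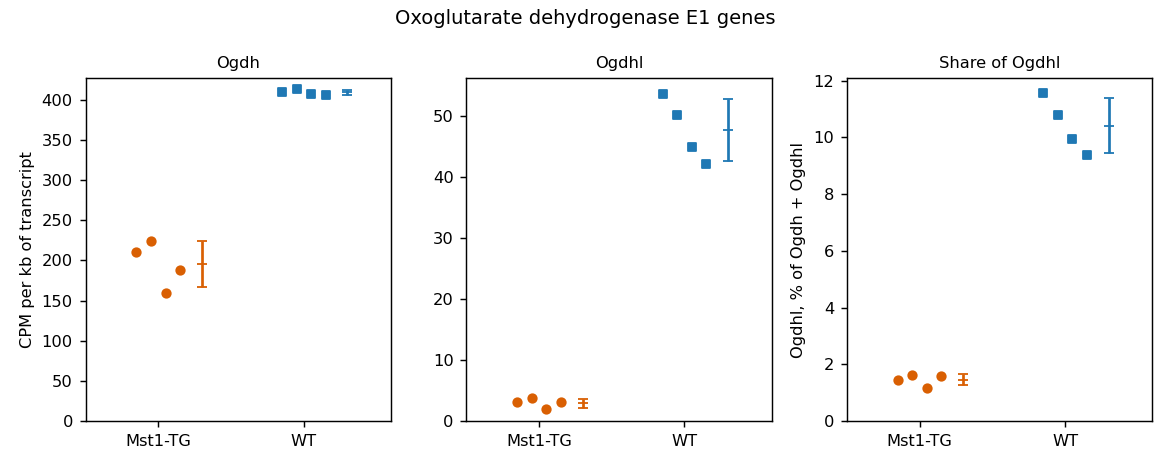
Levels of Ogdh and Ogdhl in CPM per kb of transcript and the share of Ogdhl in their sum (vertical axes from 0), with 1 point per library, Mst1-TG left of WT, and mean ± SD (n = 4) beside the points. Both genes are lower in Mst1-TG without overlap, and the Ogdhl share is 1.17% to 1.62% in Mst1-TG and 9.38% to 11.6% in WT.

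The succinyl-CoA ligase genes fell to a similar degree. Suclg1 encodes the subunit common to both forms of the enzyme, Sucla2 the subunit of the ATP-forming and Suclg2 that of the GTP-forming one. Sucla2 was at 240.4, 237, 203 and 239 CPM in Mst1-TG and at 567, 598, 542 and 541 CPM in WT (-1.29 ± 0.08, edgeR adjusted p = 4.83e-08). Suclg1 was at 159.6, 141, 136 and 157 CPM in Mst1-TG and at 332, 384, 339.7 and 349.8 CPM in WT (-1.24 ± 0.08, edgeR adjusted p = 6.18e-08). Suclg2 was at 55.9, 64.7, 51.7 and 62.0 CPM in Mst1-TG and at 128, 131, 125 and 125 CPM in WT (-1.12 ± 0.07, edgeR adjusted p = 9.08e-08). None of the 3 genes had overlapping groups. Sucla2 took 84.7% to 86.7% of the summed level of Sucla2 and Suclg2 per kb in Mst1-TG and 86.7% to 87.4% in WT, so the ATP-forming subunit was the main transcript in both. Suclg2 shares 28.1% of its 31-base words with other genes, mainly Gm15163, which had 1 count.

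The last steps of the cycle fell as well. Fumarase (Fh1) changed by -1.16 ± 0.09 and the mitochondrial malate dehydrogenase Mdh2 by -1.07 ± 0.08. Mdh2 averaged 572 ± 50.4 CPM in Mst1-TG and 1200 ± 3.85 CPM in WT. The cytosolic malate dehydrogenase Mdh1 changed by -0.88 ± 0.08. Mdh1 and Mdh2 work together with the aspartate transaminases Got1 (cytosolic) and Got2 (mitochondrial) in the malate-aspartate shuttle, which carries reducing equivalents of glycolysis into mitochondria. Got1 changed by -1.03 ± 0.08 and Got2 by -0.82 ± 0.09, so that all 4 shuttle enzymes fell, cytosolic ones included. Got2 shares 57% of its 31-base words with other genes, mainly Gm10874, which had no counts. Per kb, Mdh1 was the highest of the 34 genes in Mst1-TG (403 ± 29.0 CPM per kb, with Mdh2 at 393 ± 34.6) and Mdh2 in WT (824 ± 2.65, with Mdh1 at 743 ± 51.0). Mdh1 and Mdh2 did not differ beyond their spread in Mst1-TG.

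Of the 2 anaplerotic enzymes, 1 was called, with a small change. Pyruvate carboxylase (Pcx), which makes oxaloacetate from pyruvate, was at 15.3, 12.8, 9.17 and 8.99 CPM in Mst1-TG and at 13.5, 12.5, 11.4 and 10.7 CPM in WT. The Mst1-TG libraries lay on both sides of the WT range, and no difference was called (-0.05 ± 0.16, edgeR adjusted p = 0.83). Glutamate dehydrogenase (Glud1), which feeds glutamate carbon into the cycle as oxoglutarate, averaged 135 ± 4.89 CPM in Mst1-TG and 151 ± 2.49 CPM in WT (SD, n = 4 each). The groups did not overlap, but the fall was small (-0.16 ± 0.06, edgeR adjusted p = 0.0324). It did not pass under 9 of 15 alternatives: without Mst1-TG 1, 2 or 3 or WT 1, 2 or 3, with no filter on low counts, with the replicate block, and with library totals only, where it turned to 0.12.

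Other genes of the same routes were counted from a list of 42 symbols that stood for 40 genes. Mut and Mmut name the same gene, as do Adss1 and Adssl1. All 40 genes were in the table, 39 were tested, and Ampd1 had no count. Of the 39, 25 fell, 3 rose and 11 did not pass, against 21.1% lower and 21.2% higher among all genes tested. The median log2 fold change was -0.84, beside 0.01 for all genes tested. Other scalings were not run for this list. All 4 succinate dehydrogenase genes fell, among them Sdhb (-1.22 ± 0.07) and Sdha (-1.23 ± 0.08). Ldhb, the lactate dehydrogenase of oxidative tissue, changed by -1.20 ± 0.07, the oxoglutarate carrier Slc25a11 by -1.13 ± 0.07 and the mitochondrial malic enzyme Me3 by -1.14 ± 0.08. The 3 genes that rose were the citrate carrier Slc25a1 (0.89 ± 0.13), the malic enzyme Me2 (0.49 ± 0.10) and glutamine synthetase Glul (0.36 ± 0.11, with overlapping groups). Slc25a1 was at 14.1 ± 1.71 CPM in Mst1-TG and 7.59 ± 1.09 CPM in WT (SD, n = 4 each).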

How the data were processed

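The authors deposited 1 table of estimated counts for 55385 genes in 8 libraries, not scaled for library size. Directional libraries were built from 200 ng of RNA after ribosomal depletion, per the labels' protocols. Reads were handled with bcl2fastq 2.19.1.403 and kallisto 0.46.0, per the submitters' processing notes. Build, annotation and strand setting: not given in the sources used here, so reads of antisense neighbours may not be separated (6 of the 34 genes overlap one in exons). As deposited, the estimated counts were already whole, and none was rounded here.

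Groups came from the sample titles. Genes were filtered with filterByExpr (minimum count 10, minimum total 15), scaled by TMM and tested with the robust quasi-likelihood F test of edgeR 4.0.16 in R 4.3.3, with Benjamini-Hochberg adjustment over 15314 genes. The SE of a log2 fold change is its size over the root of F. CPM values are TMM-scaled, and levels per kb use the length of the principal protein-coding transcript in GENCODE M21 (GRCm38), where all 34 genes matched by identifier and symbol, 32 with the same version. Within groups, libraries differed beyond sampling noise (chi-square over its degrees of freedom, 7.76 to 23.6). Same-numbered libraries did not deviate together (correlations -0.142 to 0.075), so the numbers were not treated as pairs. Alternatives were library totals, RLE factors, TMM without mitochondrial and the 20 most abundant genes, no filter, DESeq2 1.42.0, limma-voom 3.58.1, a replicate block and leaving out each library. The genes, lists and tests were chosen with earlier results of these data known. All 34 genes are named by rule, with values by library for kinases, phosphatases, Ogdh, Ogdhl, those not called lower and the 8 others with the smallest p. Of the fixed list of neighbours, the 5 lower genes with the smallest p and every higher gene are named. Promoter sequences are RefSeq's for GRCm38.p6.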

Additional observations from a re-analysis of the deposited data

Results flagged for a closer look

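In 72 checks of a gene's or ratio's 4 libraries in one group, 8 had a library far from the other 3, where chance flags about 1 in 20. That rate is for a single check. The 72 share the same 8 libraries and are not independent, so their count cannot be read against it. Mst1-TG 3 was concerned in 6 of the 8. It was low for Pdhb (333 CPM, others 376.5 to 382), Dlat (215, others 249 to 254), Sucla2 (203, others 237 to 240.4), Mdh1 (763, others 877 to 895) and Mdh2 (497, others 591 to 606). The same library was high for the log2 ratio of summed kinases to phosphatases (6.11, others 5.35 to 5.39). Among WT libraries, Pdhx stood high in WT 2 (122 CPM, others 110 to 111) and Pdpr low in WT 4 (76.8 CPM, others 91.1 to 93.2).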

How the results depend on the processing

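Over 15 alternatives, 27 of the 34 genes kept both their direction and their side of the threshold in all of them, and 482 of 510 single values did. The exceptions were Pdk1, Pdk4, Pdp1, Aco1, Idh1, Pcx and Glud1. With library totals only, 1592 genes were called lower and 7409 higher, 26 of the 29 falls remained, 2 of the 34 genes were called higher (Pdk1 and Pdk3) and the median of the 34 was -0.74. The changes of Aco1 (0.0659), Idh1 (0.0829), Pcx (0.23) and Glud1 (0.12) then turned positive, none past the threshold. Without a filter on low counts 2 of the 34 were called higher, and leaving out 1 library gave 1 to 2. Pcx also turned positive without Mst1-TG 3 (0.0449), Mst1-TG 4 (0.0518) and WT 1 (0.0056). With a replicate block, 28 of the 29 falls remained (Glud1 did not pass, adjusted p = 0.0618) and 6187 genes were called, against 6482 without it. For the Ogdhl to Ogdh ratio, the block kept the difference of -2.99, with an exact sign-flip p of 0.125, the smallest that 4 pairs can give. Leaving out 1 library gave -3.04 to -2.88 for that ratio and -0.22 to 0.22 for the log2 kinase to phosphatase ratio, against -0.0022 with all libraries. The causes of these differences were not tested.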

Other observations

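Other genes of fuel choice, named after their values were seen, did not all follow the cycle. Ldha, the lactate dehydrogenase of glycolytic tissue, averaged 719 ± 61.0 CPM in Mst1-TG and 657 ± 21.1 CPM in WT (SD, n = 4 each) and did not pass (0.13 ± 0.08, edgeR adjusted p = 0.193), whereas Ldhb averaged 432 ± 29.1 CPM in Mst1-TG and 992 ± 27.0 CPM in WT and fell. Whether the change of Ldha differed from that of Ldhb was not tested. All 4 tested genes of the route from propionyl-CoA to succinyl-CoA, a way for carbon of odd-chain fatty acids and some amino acids to enter the cycle, fell, with log2 fold changes of -1.11 to -0.85. Both alanine transaminases fell, with log2 fold changes of -1.415 ± 0.16 for Gpt and -1.04 ± 0.08 for Gpt2.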
